A study of Mus musculus with 4 samples.

Results

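Bone morphogenetic protein (BMP) ligands and genes of the pathway that reports on them were measured in cultures of mouse prefrontal cortex (PFC) grown with or without FGF2. The 10 genes were taken by symbol from the 55421 genes listed in each count file. They are the ligands Bmp2, Bmp4, Bmp6 and Bmp7, the target genes Id1, Id2, Id3 and Id4, the inhibitory SMAD Smad6 and the decoy receptor Bambi. All 10 passed the expression filter, which left 17144 genes for testing. PFC tissue of newborn wild-type C57BL/6 mice (postnatal day 0) was dissociated with papain and plated in Neurobasal medium with B27 and GlutaMAX, without a sort for any cell type. Meninges and vessels had been peeled off before the digestion. Culture lasted 10 days, and 5 ng/mL FGF2 was added in 1 condition and left out in the other, with 2 total RNA libraries each. Replicates 1 and 2 are named after the B1 and B2 of the sample titles. Nothing says that these came from separate cultures or animals, and the methods of the study call all bulk samples other than those of a pair of human stages technical replicates, without naming the mouse ones, so p-values measure the spread between libraries, which may be technical.

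BMPs are secreted dimers of the TGF-beta superfamily. They bind a complex of type I and type II serine/threonine kinase receptors, which phosphorylates SMAD1, SMAD5 and SMAD9. These enter the nucleus with SMAD4 and activate target genes, of which the Id genes are the best known. Id proteins have a helix-loop-helix domain but no DNA-binding region, so they capture E proteins and keep these from pairing with proneural and oligodendrocyte bHLH factors. In the developing cortex, BMP signalling is known to favour astrocytes and to hold back neurogenesis and oligodendrocyte differentiation, and FGF signalling is known to oppose it through ERK, which phosphorylates SMAD1.

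Counts on genes lay between 9166432 and 10799886 per library. A count of 0 would still allow up to 3 counts, or 0.278 to 0.327 CPM (counts scaled to library size) before TMM factors, which covers counting error only. All other CPM here include the TMM factors. Neurons were present by their markers, since Tubb3, Map2 and 10 other pan-neuronal genes summed to 3857 to 3977 CPM with FGF2 and to 5559 to 5578 CPM without it. Glia were abundant too, with 12 astrocyte markers at a sum of 13490 to 13650 CPM with FGF2 and 8717 to 8799 CPM without it. Gfap alone made up 5641 to 5945 CPM of this sum with FGF2 and 2770 to 2781 CPM without it. Of the 11 astrocyte genes tested, 8 were higher with FGF2 and 2 lower. Oligodendrocyte lineage markers summed to 1864 to 1873 CPM with FGF2 and 559.6 to 568.7 CPM without it. In bulk RNA, fewer cells of a type and less RNA per cell cannot be told apart.

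Among the members, Bmp4 changed most, with a mean level 8.39-fold higher with FGF2, and Id3 was 1.41-fold higher. In contrast, Id2, Id4 and Bambi were lower with FGF2, with mean levels 1.23-fold, 1.19-fold and 1.54-fold higher in the cultures without it. Bmp2, Bmp6, Bmp7, Id1 and Smad6 did not pass the threshold. Thus 5 of 10 members passed an adjusted p threshold of 0.05 (quasi-likelihood test of edgeR, with Benjamini-Hochberg values over all genes tested), 2 higher and 3 lower, where 40.5% of all genes tested passed it, 20.7% higher and 19.9% lower. The share of members passing was therefore close to that of all genes. With DESeq2 only Bmp4 passed, where 23.2% of genes with an adjusted p did so. The median log2 fold change of the 10 members was -0.04, against -0.001 over all genes tested. The plot of CPM by library shows the levels behind these counts, and the plot of log2 fold changes shows their intervals.

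**Figure D1:**
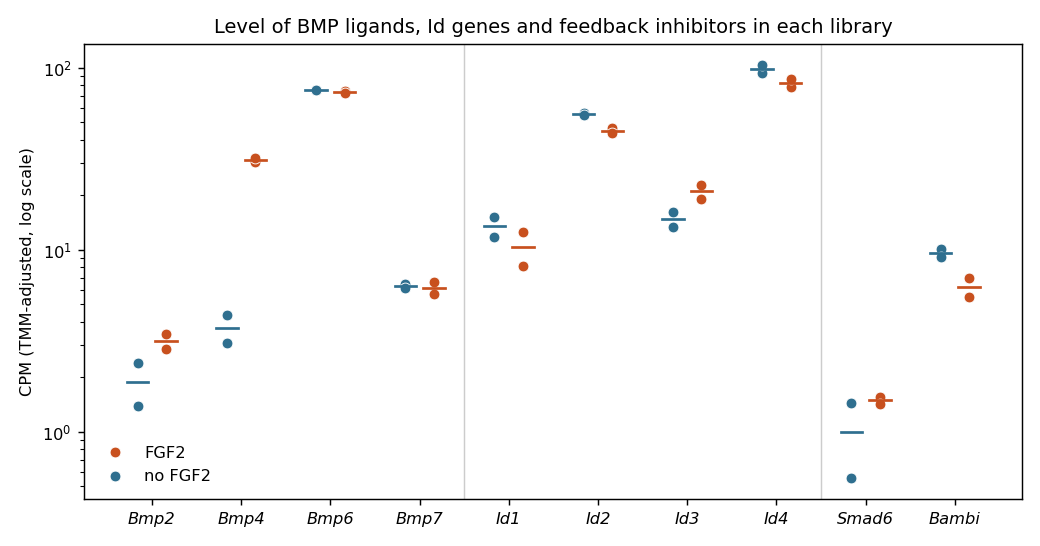
Level of each of the 10 genes in each of the 4 libraries in CPM (TMM-adjusted) on a log axis, with points for libraries, bars for the mean of 2 libraries, FGF2 in orange and no FGF2 in blue. Bmp4 lies at 30.3 and 32.0 CPM with FGF2 and at 4.38 and 3.05 CPM without it, while the points of Bmp6 and Bmp7 nearly coincide.

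**Figure D2:**
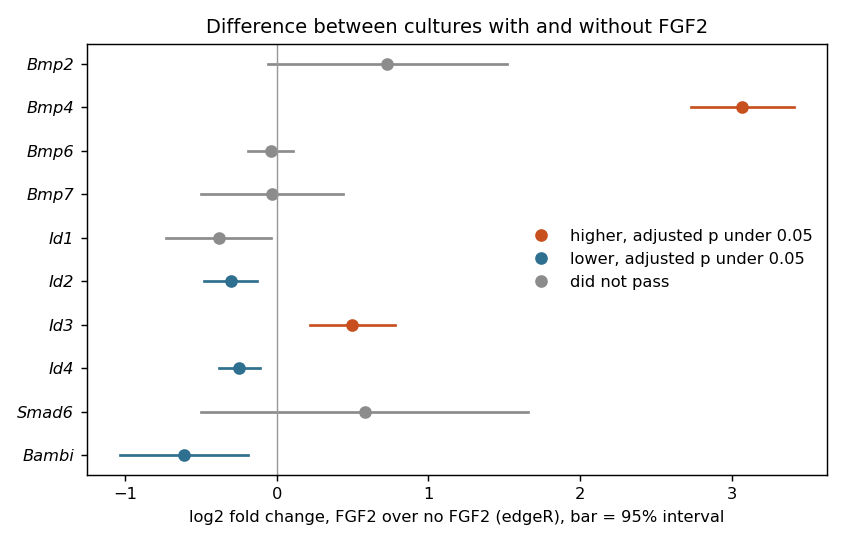
Log2 fold change of each gene, FGF2 over no FGF2, from the edgeR fit of 2 against 2 libraries, with bars for the 95% interval and colours for the call at an adjusted p of 0.05. Bmp4 stands at 3.07, and all other values lie between -0.61 and 0.73.

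Bmp4 is the ligand classically used to drive cortical progenitors towards astrocytes. It lies on the minus strand of chromosome 14 of mm10, from 46383520 to 46390669, with 2248 bases of annotated exon. The bases just upstream of its RefSeq start, and those of Id4, are shown because these are the member with the largest change and the Id gene with the highest level, and they moved in opposite directions. Sequences are from RefSeq (GRCm38.p6), 5′ to 3′ on the strand of the gene, and the last base is next to the start. Capitals mark matches on either strand to any of 6 motifs. For SMADs these were the GC-rich palindrome GGCGCC, and the longer palindrome GTCTAGAC. For bHLH factors the E-box bound by E proteins was searched as CAGGTG. The palindromic E-box was searched as CACGTG. The GC box was searched with the letters GGGCGG. The TATA box was searched with the letters TATAAA.
Bmp4, chr14:46390670-46390919, minus strand: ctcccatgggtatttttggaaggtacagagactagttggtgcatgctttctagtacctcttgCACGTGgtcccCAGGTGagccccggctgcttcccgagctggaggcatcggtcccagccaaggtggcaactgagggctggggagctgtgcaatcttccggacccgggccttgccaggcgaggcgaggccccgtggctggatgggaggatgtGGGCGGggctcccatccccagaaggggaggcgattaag
Id4, chr13:48260866-48261115, plus strand: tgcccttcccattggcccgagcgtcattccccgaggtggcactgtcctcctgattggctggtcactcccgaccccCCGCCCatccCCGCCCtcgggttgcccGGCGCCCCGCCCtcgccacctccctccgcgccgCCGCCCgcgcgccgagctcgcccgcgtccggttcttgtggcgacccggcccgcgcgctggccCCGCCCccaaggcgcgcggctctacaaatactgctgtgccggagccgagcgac

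The Bmp4 stretch held CACGTG beginning 188 bases and CAGGTG beginning 177 bases before the start, and GGGCGG at 38 bases. The Id4 stretch held GGCGCC at 148 bases and 5 GC boxes, and no E-box of either kind. The same motifs were found at members that moved otherwise, since the window of Bmp6, which did not pass the threshold, also held both E-boxes and a GC box. Of the remaining windows searched, that of Id2 held GGCGCC and a GC box, and those of Id3 and Smad6 held only GC boxes. The windows are not alike, since all 250 bases of Bmp6 and Id3 and 161 of Id2 lay in annotated exons of the same gene. The windows of Bmp4, Id4 and Smad6 held 0 such bases. No 2 matches in the printed stretches shared bases, although GGCGCC in Id4 directly adjoins a GC box. In the window of Id3 the 2 GC boxes, at 94 and 90 bases, overlapped. Of 32851 RefSeq promoter windows of 250 bases, 6.02% held CACGTG and 17.2% held the other E-box, CAGGTG. The palindrome GGCGCC was in 9.59% of the windows and the GC box in 32.7%. The other palindrome, GTCTAGAC, was found in 0.167% and the TATA box in 12.4% of the windows, and neither was in the printed stretches. A match is a run of letters and not a measured binding site. Sequences were matched for 6 of the 10 members, and those of Bmp2, Bmp7, Id1 and Bambi were not used.

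Counts of Bmp4 were 275 and 315 with FGF2 against 46 and 33 without it. Its level was 31.2 ± 1.22 CPM with FGF2 and 3.71 ± 0.941 CPM without it (SD, n = 2). The libraries of the 2 conditions did not overlap, and the lowest library with FGF2 was far above the highest without it. The log2 fold change was 3.07 (SE 0.18, 95% interval 2.73 to 3.41, adjusted p = 1.9e-66 from edgeR). A larger value was found for 84 of the 17144 genes tested, or 0.49%. DESeq2 gave an adjusted p of 9.9e-29. Leaving out 1 library at a time gave values from 2.82 to 3.35. On the opposite strand, Gm15217 shares 89 exonic bases with Bmp4 and had 0 counts in every library. Most markers of glia moved in the same direction as Bmp4. With FGF2, 9 of 9 tested oligodendrocyte lineage genes were higher, and of 11 tested astrocyte genes 8 were higher and 2 lower. The part of glia in the result was not tested.

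Bmp6, a ligand of the same subfamily as Bmp7, was the most abundant ligand per exon length in both conditions. It lies on chromosome 13 from 38345107 to 38500302. Its level was 74.3 and 72.1 CPM with FGF2 and 75.2 ± 0.328 CPM without it (SD, n = 2). These libraries did not overlap, but the gap was small, with a log2 fold change of -0.04 and a 95% interval of -0.19 to 0.11 (adjusted p = 0.72 from edgeR). Txndc5 on the opposite strand shares 224 exonic bases with Bmp6 and had 1102 to 1164 counts per library, and if reads were counted without strand, those in the shared bases could not be told apart. Bmp7, which is known from meninges and choroid plexus, lies on chromosome 2 from 172868012 to 172940321. Counts were 52 and 65 with FGF2 against 68 and 67 without it, and the conditions overlapped once scaled to CPM. Its log2 fold change was -0.03 (95% interval -0.50 to 0.44, adjusted p = 0.93 from edgeR).

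Bmp2, the closest relative of Bmp4, lies on chromosome 2 from 133552159 to 133562885 and was near the lower end of what was measured. Counts were 31 and 28 with FGF2 against 25 and 15 without it, or 3.13 ± 0.403 and 1.88 ± 0.703 CPM (SD, n = 2). Both libraries with FGF2 were above both without it, which held for 33.6% of all genes tested. The log2 fold change of 0.73 did not pass the threshold (SE 0.40, 95% interval -0.06 to 1.52, adjusted p = 0.14 from edgeR). Leaving out no-FGF2 replicate 1 gave 1.16, and leaving out no-FGF2 replicate 2 gave 0.39.

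To compare ligands with each other, CPM were divided by the exon length of each gene. The summed level of the 4 ligands was 34.9 and 35.2 CPM per kb with FGF2 and 23.5 and 22.6 CPM per kb without it. Bmp4 made up 39.6% ± 1.34 of this sum with FGF2 and 7.15% ± 1.64 without it (SD, n = 2). Bmp6 made up 53.6% ± 1.42 with FGF2 and 83.7% ± 2.48 without it. Bmp2 and Bmp7 together stayed a small part, each below 7% in every library. The level of Bmp6 itself hardly differed between conditions, so its smaller share went with the higher level of Bmp4. An exact permutation test of 2 libraries against 2 cannot go below p = 0.33, so shares are given without a test.

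**Figure D3:**
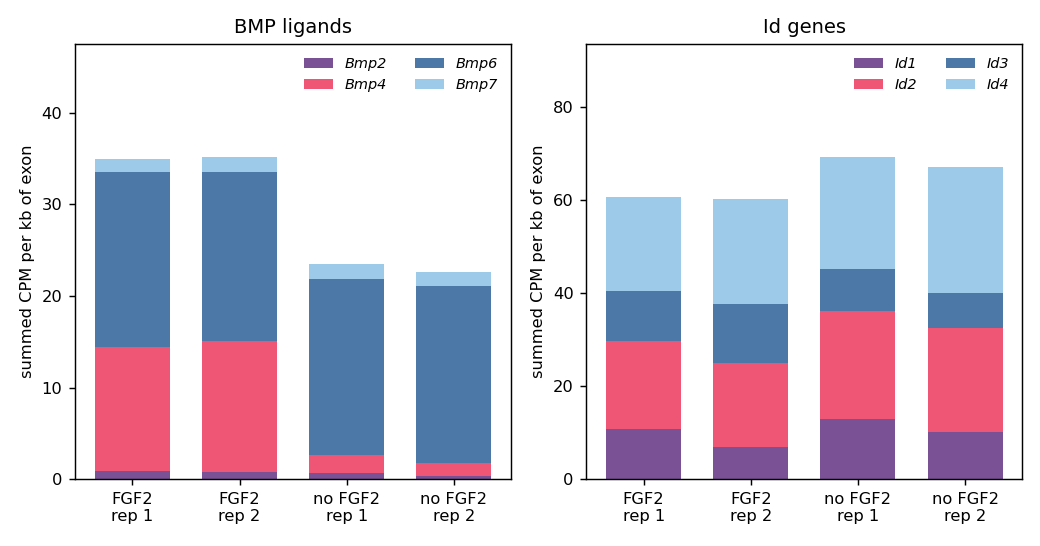
Stacked levels of the 4 BMP ligands (left) and the 4 Id genes (right) in each library, in CPM per kb of exon on axes from 0. The Bmp4 segment is 13.5 and 14.2 CPM per kb with FGF2 against 1.95 and 1.36 without it, and the Id columns reach 60.8 and 60.3 with FGF2 and 69.3 and 67.1 without it.

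The Id genes went in both directions. Id4, which is known from neural progenitors and astrocytes, had the highest level of the 4 per exon length, and lies on chromosome 13 from 48261228 to 48266026. It had 78.5 and 87.0 CPM with FGF2 and 92.9 and 103.8 CPM without it. The libraries with FGF2 were both lower, but the nearest libraries of the 2 conditions lay closer together than the replicates of either. Its log2 fold change was -0.25 (SE 0.07, 95% interval -0.38 to -0.11, adjusted p = 0.0013 from edgeR, 0.071 from DESeq2). The call was lost when FGF2 replicate 1 was left out (adjusted p = 0.057 from edgeR), and likewise for no-FGF2 replicate 2 (adjusted p = 0.17 from edgeR). Gm49291 and A330033J07Rik on the opposite strand share 171 and 82 exonic bases with Id4 and had at most 14 counts in a library.

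Id2, which is known to restrain oligodendrocyte differentiation and is also used by cortical neurons, lies on chromosome 12 from 25093799 to 25097140. Its level was 46.3 and 43.8 CPM with FGF2 and 56.4 and 54.9 CPM without it. Here the replicates lay close together and the conditions were clearly apart. For Id2 the log2 fold change was -0.30 (SE 0.09, 95% interval -0.48 to -0.13, adjusted p = 0.0024 from edgeR, 0.079 from DESeq2), and it stayed between -0.35 and -0.27 with each library left out, each time past the threshold.

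Id3 was the only Id gene with a higher level with FGF2 at the adjusted threshold, and it lies on chromosome 4 from 136143497 to 136145755. Id3 is a direct target of BMP signalling. Counts were 172 and 224 with FGF2 against 170 and 145 without it, or 19.0 and 22.8 against 16.2 and 13.4 CPM. The conditions did not overlap, but replicates within a condition differed by at least as much as the gap between the conditions. For Id3 the log2 fold change was 0.50 (SE 0.14, 95% interval 0.22 to 0.78, adjusted p = 0.0019 from edgeR, 0.11 from DESeq2). It no longer passed when replicate 2 of either condition was left out (adjusted p = 0.10 with the FGF2 library out and 0.11 with the other, both from edgeR).

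Id1, the target most often used to read out BMP activity, lies on chromosome 2 from 152736251 to 152737410. Counts were 114 and 80 with FGF2 against 159 and 127 without it, or 12.6 and 8.13 against 15.1 and 11.7 CPM. The conditions overlapped. The log2 fold change of -0.38 did not pass the threshold (SE 0.18, adjusted p = 0.068 from edgeR), and its value depended on which library was left out. Leaving out FGF2 replicate 1 gave -0.72 and leaving out FGF2 replicate 2 gave -0.10 (adjusted p = 0.0034 and 0.75 from edgeR). Leaving out no-FGF2 replicate 2 gave -0.56 and leaving out no-FGF2 replicate 1 gave -0.19 (adjusted p = 0.036 and 0.59 from edgeR).

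Summed over the 4 Id genes, the level was 60.8 and 60.3 CPM per kb with FGF2 and 69.3 and 67.1 without it, with no overlap. Id4 made up 35.5% ± 2.80 of this with FGF2 and 37.5% ± 3.82 without it, and Id2 made up 30.5% ± 1.01 and 33.5% ± 0.154. The share of Id3 was 19.3% ± 2.60 with FGF2 and 12.1% ± 1.33 without it. That of Id1 was 14.7% ± 4.38 and 16.9% ± 2.65, a difference within the spread of the libraries. Neuronal markers moved in the same direction as Id2 and Id4, with 10 of 12 pan-neuronal genes lower and 1 higher with FGF2, as did 7 of 8 proliferation markers. Their part in these results was not tested.

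The feedback genes had low levels. Smad6, whose product blocks type I BMP receptors and competes with SMAD4 for SMAD1, lies on chromosome 9 from 63953076 to 64022059. Counts were 14 and 14 with FGF2 against 15 and 6 without it, so the conditions overlapped, and no difference was detectable at this depth. Its log2 fold change was 0.58 (SE 0.55, 95% interval -0.50 to 1.66, adjusted p = 0.43 from edgeR), and leaving out no-FGF2 replicate 1 or 2 gave 1.39 or 0.05.

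Bambi encodes a transmembrane protein that resembles a type I receptor but lacks the kinase, and BMP4 is known to induce it. Counts were 50 and 69 with FGF2 against 106 and 99 without it, or 5.51 and 7.02 against 10.1 and 9.14 CPM. Both libraries with FGF2 were lower than both without it. For Bambi the log2 fold change was -0.61 (SE 0.22, 95% interval -1.03 to -0.19, adjusted p = 0.013 from edgeR, 0.19 from DESeq2). Without replicate 1 of either condition it did not pass (adjusted p = 0.14 with the FGF2 library left out and 0.13 with the other, both from edgeR). Among all 10 members the 2 conditions did not overlap for 7, 3 with FGF2 above and 4 with FGF2 below, where 67.1% of all genes tested did not overlap.

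Per exon length, the order without FGF2 was Id4, Id2, Bmp6, Id1, Id3, Bambi, Bmp4, Bmp7, Bmp2 and Smad6, from 25.6 ± 2.01 to 0.309 ± 0.193 CPM per kb (SD, n = 2). Within it the libraries of Bmp4 overlapped those of both Bambi and Bmp7, as did those of Bmp2 and Smad6. With FGF2, Bmp4 came next after Id4, Bmp6 and Id2, at 13.9 ± 0.541 CPM per kb, followed by Id3, Id1, Bmp7, Bambi, Bmp2 and Smad6. Here Bmp6 and Id2 overlapped, as did Id3 and Id1.

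The other genes of the pathway were taken by role, as 55 genes in 7 lists, of which 38 passed the expression filter. With FGF2 17 of the 38 were higher and 5 lower at the adjusted threshold, and 16 did not pass, against 20.7% of all genes tested higher and 19.9% lower. With DESeq2, which used its own filter, 10 of the 55 were higher and 1 lower. Of all 17252 genes with an adjusted p from DESeq2, 2068 were higher and 1939 lower, or 23.2% in either direction. The median log2 fold change of the 38 was 0.16. The plot by role shows that the SMADs and E proteins lay on the higher side while receptors and antagonists lay on both sides.

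**Figure D4:**
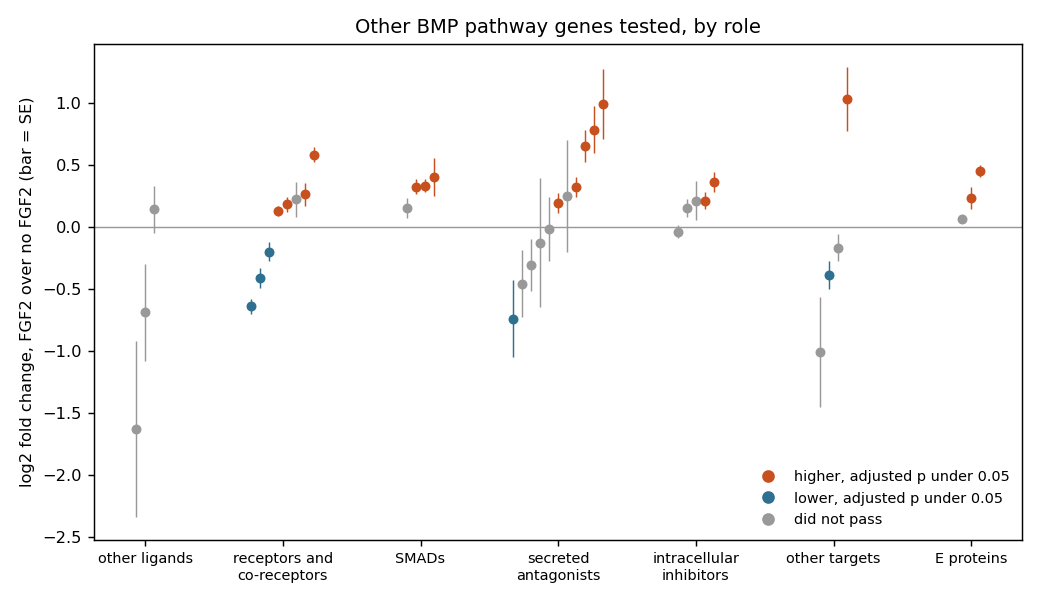
Log2 fold change, FGF2 over no FGF2, of the 38 other BMP pathway genes tested, grouped by role, with bars for the standard error and colours for the edgeR call at an adjusted p of 0.05. The 4 SMADs and 3 E proteins are above 0, the receptors run from -0.64 to 0.58, and the lowest value is Gdf5 at -1.63, which did not pass.

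Among other ligands, 3 of 11 passed the filter and 0 of the 3 passed the adjusted threshold with edgeR or limma-voom. With DESeq2 0 of the 2 with an adjusted p passed, and at an unadjusted p under 0.05 from edgeR 1 passed, Gdf5. Bmp3, an antagonistic ligand, had a log2 fold change of 0.14 (SE 0.19). Gdf5 and Gdf10 had -1.63 (SE 0.71) and -0.69 (SE 0.39), with at most 14 and 37 counts in a library (adjusted p = 0.054 and 0.15 from edgeR). The value of Gdf10 rested on FGF2 replicate 2, the lower FGF2 library, since leaving it out gave -0.10. Leaving out FGF2 replicate 1 gave -1.64. Bmp8b, chosen after its values were seen, had counts of 1 and 0 with FGF2 against 12 and 10 without it. It was below the filter, and without a filter its adjusted p was 0.0039 from edgeR. Its paralogue Bmp8a had at most 2 counts in a library, and whether reads of the pair were split or lost in counting was not tested.

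Of 11 receptor and co-receptor genes, 8 were tested, with 4 higher, 3 lower and 1 not passing. The type I receptor gene Bmpr1a had 149 and 177 CPM with FGF2 and 111 and 107 without it. Its log2 fold change was 0.58 (SE 0.06, adjusted p = 8.6e-22 from edgeR, 1.7e-08 from DESeq2). Bmpr2, which encodes the type II receptor, was higher by a small amount at 0.13 (SE 0.04, adjusted p = 0.0028 from edgeR), and it did not pass with an offset for GC content and gene length (adjusted p = 0.062) or with 3 of the 4 libraries left out in turn. On the lower side, the co-receptor Rgmb had 101 and 97.3 CPM with FGF2 and 154 and 155 without it, a log2 fold change of -0.64 (SE 0.06, adjusted p = 1.4e-24 from edgeR). Acvr2a, a type II receptor shared with activins, had -0.41 (SE 0.08, adjusted p = 1.4e-06 from edgeR, 0.26 from DESeq2), and leaving out FGF2 replicate 1 gave -0.19 (adjusted p = 0.087 from edgeR).

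Of the SMADs, which carry the signal to the nucleus, 3 of 4 were higher. Smad5 had a log2 fold change of 0.33 (SE 0.05) and the common partner Smad4 of 0.32 (SE 0.06), with adjusted p-values of 5.5e-09 and 2.0e-06 from edgeR. For Smad5 the levels were 179 and 188 CPM with FGF2 and 148 and 143 without it. Smad9 was at 0.40 (SE 0.15, adjusted p = 0.021 from edgeR, 0.24 from DESeq2), and it did not pass without replicate 1 of either condition. Smad1 did not pass at 0.15 (SE 0.08, adjusted p = 0.12), although it did with an offset for GC content and gene length, at 0.21 (adjusted p = 0.016).

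The 15 genes listed as secreted antagonists, which act outside the cell, gave 11 tested genes, of which 5 were higher, 1 lower and 5 did not pass. Bmper had a log2 fold change of 0.65 (SE 0.13, adjusted p = 4.2e-06), Chrdl1 of 0.78 (SE 0.19, adjusted p = 0.00024) and Nbl1 of 0.32 (SE 0.08, adjusted p = 0.00023), all from edgeR. Fst, which encodes follistatin, had 5.18 and 8.03 CPM with FGF2 and 3.52 and 3.14 without it. Its log2 fold change was 0.99 (SE 0.28, adjusted p = 0.0015 from edgeR, 0.089 from DESeq2), and leaving out FGF2 replicate 2 gave 0.63, which did not pass (adjusted p = 0.16 from edgeR). Nbl1 also did not pass without that library, at 0.20 (adjusted p = 0.095).

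Among 5 intracellular inhibitors, 2 were higher and 3 did not pass. Skil, a SMAD co-repressor, had a log2 fold change of 0.36 (SE 0.08, adjusted p = 1.5e-05 from edgeR). Smurf2, a ubiquitin ligase for SMADs and receptors, had 0.21 (SE 0.07, adjusted p = 0.0078 from edgeR, 0.13 from DESeq2), and it did not pass without replicate 2 of either condition. Its relative Smurf1 was at 0.15 (SE 0.07, adjusted p = 0.097), and it passed with the GC and length offset at 0.25, as well as with FGF2 replicate 2 left out, also at 0.25. Smad7, the other inhibitory SMAD, was at 0.21 (SE 0.16, adjusted p = 0.30) and leaving out no-FGF2 replicate 2 or 1 gave -0.05 or 0.52, the last of which passed (adjusted p = 0.047 from edgeR).

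Other targets moved in both directions, with 1 higher, 1 lower and 2 not passing of 4 tested among 6. Atoh8, a bHLH gene induced by BMP signalling, had 7.16 and 7.63 CPM with FGF2 and 3.33 and 3.88 without it. The log2 fold change of Atoh8 was 1.03 (SE 0.26, adjusted p = 0.00040 from edgeR, 0.043 from DESeq2). Dlx5, a homeobox gene that is also an interneuron marker, had -0.39 (SE 0.11, adjusted p = 0.00097 from edgeR, 0.071 from DESeq2), and did not pass with FGF2 replicate 2 left out. Msx1 was at -1.01 (SE 0.44, adjusted p = 0.055), and leaving out no-FGF2 replicate 1 or 2 gave -0.35 or -1.47, the last of which passed (adjusted p = 0.019 from edgeR). With at least 10 counts required in every library Msx1 also passed, on nearly the same fold change (adjusted p = 0.025 from edgeR). Hey1, which is also a Notch target, was at -0.17 (SE 0.11, adjusted p = 0.23).

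The E proteins are the binding partners of the Id proteins. Tcf12 had 220 and 226 CPM with FGF2 and 164 and 162 without it, a log2 fold change of 0.45 (SE 0.05, adjusted p = 3.4e-18 from edgeR, 1.4e-09 from DESeq2). Tcf3 was at 0.23 (SE 0.09, adjusted p = 0.020 from edgeR, 0.22 from DESeq2), and it did not pass with 3 of the 4 libraries left out in turn. Tcf4, the most abundant of the 3 per exon length, was at 0.06 (SE 0.03). Its adjusted p was 0.13 from edgeR, 0.27 from DESeq2 and 0.044 from limma-voom. Over the other settings that kept all 4 libraries, the log2 fold change of Tcf4 ranged from 0.0009 to 0.07.

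Cell types that are known to express BMPs or Id genes were followed by their markers. Of the meningeal fibroblast and mural genes, 9 of 12 were tested, with 3 higher and 2 lower, and their sum was 115.9 to 119.4 CPM with FGF2 and 90.1 to 90.8 without it. The lower genes were the collagen genes Col1a1 and Col1a2, at log2 fold changes of -2.18 and -1.73. The higher ones, named after their values were seen, were Pdgfrb at 0.73, Rgs5 at 1.89 and Cspg4 at 0.56. Cspg4 is also in the oligodendrocyte lineage list. Most of the sum came from Pdgfrb and Cspg4. Pdgfrb had 46.57 to 49.15 CPM with FGF2 and 28.65 to 28.91 without it. Cspg4 had 49.04 to 49.92 and 33.07 to 34.17 CPM. Of the 12 genes, 4 were lower in each FGF2 library than in each library without FGF2, and 3 were higher. Endothelial genes summed to 69.8 to 74.3 CPM with FGF2 and 69.9 to 70.7 without it, with 2 higher, 1 lower and 2 not passing of 5 tested. Of this sum 57.1 to 62.9 CPM came from Slc2a1 alone, which other cells express too. Pecam1 had 17 to 29 counts per library and Cdh5 at most 3, and Cldn5 and Tie1 were at 0 in all 4 libraries. The genes that passed, like the others of this list but Pecam1 and Cdh5 named after their values were seen, were Flt1 at a log2 fold change of 2.71, Vwf at 0.96 and Kdr at -0.95. Microglial genes had 3 of 4 tested higher and summed to 13.6 to 15.2 CPM with FGF2 against 5.33 to 6.37 without it, with 4 of the 8 below the filter. Of the choroid plexus and ependymal genes 1 of 4 tested was lower and 0 were higher, with a sum of 148.8 to 162.7 CPM with FGF2 and 144.6 to 147.5 without it. Foxj1 alone, also named after its values were seen, made up 136 to 156.9 CPM of that sum, and 5 of the 7 genes were lower in each FGF2 library than in each library without FGF2. The part of these cell types in the results on the members was not tested. Of 8 cortical identity genes 3 were lower and 5 did not pass, and they summed to 647.6 to 673.2 CPM with FGF2 and 933 to 962.2 without it.

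The genes whose pattern over the 4 libraries was most like that of a member were taken by the smallest distance of centred log2 CPM among 12648 genes with a mean of at least 5 CPM. For Bmp4 these were Nfkbie, an inhibitor of NF-kB, at a distance of 0.216, and Gch1, which encodes the first enzyme of tetrahydrobiopterin synthesis, at 0.232. The nearest genes were much closer for members with smaller changes, with Pfkfb4 and E4f1 for Id2 at 0.009 and 0.012. For Id3 they were Arl4d and Mettl15 at 0.043 and 0.052, and for Bambi Tmem74 and Ephx2 at 0.053 and 0.055. With 4 libraries in 2 conditions this distance mostly reflects the difference between conditions, so it is given as a description only.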

How the data were processed

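Total RNA of the cultures was sequenced as paired reads. The authors mapped clean reads to mm10 with HISAT2 2.1.0, kept mapping qualities of at least 20 and counted with HTSeq 0.11.2 (versions from the submitters' processing notes). The deposited values are raw counts per Ensembl gene, 1 file per library. The annotation release and strand setting are not given in the sources used here. A further 5 tally entries per file, with 43.2% to 45.9% of read pairs in no feature, were left out of totals and tests. Of 55421 genes, 55240 matched GENCODE M21, which gave symbols, mm10 positions and exon lengths. Hjv was matched through its synonym Hfe2.

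Counts were tested in R 4.3.3 with edgeR 4.0.16, by its quasi-likelihood method (TMM, its expression filter by group, robust estimation, Benjamini-Hochberg over 17144 genes), and standard errors are the log2 fold change over the root of F. The fit was tested on simulated counts, but the outcome is not reported here, and genes that did not pass may still differ. CPM carry SDs over 2 libraries. Replicates differed by more than sampling noise (chi-square per degree of freedom 2.28 with FGF2 and 1.76 without). BLAST 2.17.0 found stretches of at least 100 bases at 95% identity in another gene for 2 of the 10 members, the overlapping genes of Bmp6 and Id4. Members and lists were chosen with earlier results of these data known. Named genes are all members, up to 4 genes per pathway list with the smallest adjusted p, up to 2 markers per cell type list and the 2 nearest genes of each member past the threshold, of which those of Id4 are not reported here. Alternatives were RLE or total count scaling, no filter, at least 10 counts in every library, DESeq2 1.42.0, limma-voom (limma 3.58.1), the replicate number as a block, GC and length offsets (lowess, span 0.3) without and with that block, and each library left out in turn. Shares were also computed without division by length.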

Additional observations from a re-analysis of the deposited data

How the results depend on the processing

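The choice of tool moved the counts most. With DESeq2, 1 member passed in place of 5, 11 other BMP pathway genes in place of 22 and 4007 genes in all in place of 6949. Every other alternative that kept all 4 libraries left 5 members past the threshold, 2 higher and 3 lower, and between 21 and 23 other pathway genes. With each library left out in turn, 4 members passed each time, with 15 to 20 other pathway genes, 46 to 50 of the cell type markers (51 with all libraries) and 5213 to 6199 genes in all. Of the 10 members, Bmp2, Bmp4 and Smad6 had the same sign and the same call in all alternatives with a value, and at least 10 counts in every library gave none for Smad6. Bmp6 and Bmp7, which did not pass, turned to 0.05 and 0.04 with the GC and length offset, without or with the replicate block, and Bmp7 ranged from -0.15 to 0.06 with each library left out. Smad7 ranged from -0.05 to 0.52 in the same way.

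The replicate number shared by the titles was tried as a block. The replicate differences of the 2 conditions were uncorrelated across 12651 genes (r = 0.0040), which gave no sign of a pairing. This cannot show that there was none, since differences between replicates include counting error. With the replicate block 5 members, 22 other pathway genes, 50 cell type markers and 6814 genes in all passed, and 5, 22, 51 and 6804 with GC and length offsets as well.

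Shares depend on the division by exon length. As shares of CPM alone, the Id sum with FGF2 held 6.53% Id1, 28.4% Id2, 13.1% Id3 and 52.0% Id4, and without FGF2 7.38%, 30.5%, 8.12% and 54.0%. The ligand sum with FGF2 held 27.4% Bmp4, 64.4% Bmp6 and 5.43% Bmp7, and without FGF2 4.25%, 86.3% and 7.26%. With each library left out, the share of Bmp4 was 38.6% to 40.5% with FGF2 and 5.99% to 8.30% without it. The causes were not tested. Depth limits Bmp2, Smad6 and the ligands with few counts most.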
